A study of Homo sapiens with 8 samples.

Results

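Large acetylated clusters are stretches of the genome in which called peaks of H3K27ac, acetylation of lysine 27 of histone H3, lie close together and cover many kilobases. They were chosen by called peak length in control A549 cells. All peaks of both control libraries, on chromosomes 1 to 22 and X, that lay within 0.0125 Mb of each other were joined, and a joined cluster was kept if peaks covered at least 15 kb of it in each control. This gave 586 large clusters among 22516 joined clusters, or 2.60%. The called length, the number of bases under peaks in a cluster's span, was then read in both knockdown libraries over the same spans. Because the controls' lengths chose the clusters, every comparison of these lengths with the controls is a description and carries no test.

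A549 is an established human lung adenocarcinoma line with constant activity of NRF2, a regulator of the oxidative stress response. All cells were transfected, and H3K27ac was measured by chromatin immunoprecipitation and sequencing of 101-base single-end reads. Control libraries 1 and 2 came from cells given a control siRNA, and the knockdown libraries from cells given CEBPB siRNA-1 or CEBPB siRNA-2, 1 library each. Medium was replaced 24 h after transfection, and cells were harvested after a further 24 h. Knockdown of CEBPB itself cannot be read from peak lists. The 4 lists held 45537 to 48216 peaks on these chromosomes, covering 61.7 Mb with siRNA-2, 62.1 Mb in control 2, 67.9 Mb in control 1, and 70.4 Mb after siRNA-1. Their depth is unknown because they carry no counts, and called length is not a level of acetylation.

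H3K27ac is laid down by acetyltransferases such as p300 and CBP and marks active enhancers and promoters. Long runs of it, often called super-enhancers, commonly lie at genes that define a cell's identity or state. CEBPB encodes a basic leucine zipper transcription factor that binds enhancers as a dimer and takes part in inflammatory, metabolic and stress programmes.

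Genes were placed on hg19, the build of the peak lists, from general knowledge of that build rather than from an annotation. Each placement was kept only where the gene's length or its spacing to another gene matched RefSeq GRCh38.p14. The map holds 273 genes and is not a full catalogue, so a span can contain other genes. Of the 586 clusters, 110 contained the start of a mapped gene and 41 more lay over part of a mapped gene. The label was checked at marker genes. Of 6 epithelial markers, KRT8, KRT18, ELF3 and KLF5 had a peak within 1 kb of their start in all 4 libraries and started in a large cluster, while EPCAM and CLDN4 had no such peak in any. Of 4 fibroblast markers none had such a peak, and of 5 blood markers only CD14 did, in a smaller cluster.

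Sequences from RefSeq, GRCh38.p14, are shown for microRNAs and for promoters in clusters that were shorter or longer with both siRNAs. MIR21 starts in the third largest cluster, and MIR29A and MIR29B1 lie beside the widest peak of control 2. In the microRNAs, capitals mark the seed, bases 2 to 8, through which a microRNA recognises its targets. The mature miR-21-5p of MIR21 lies at chr17:59841273-59841294 on the plus strand. MIR29A and MIR29B1 lie on the minus strand, with mature sequences at chr7:130876748-130876769 and chr7:130877467-130877489, and share a seed.
hsa-miR-21-5p: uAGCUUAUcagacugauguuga
hsa-miR-29a-3p: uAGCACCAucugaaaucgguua
hsa-miR-29b-3p: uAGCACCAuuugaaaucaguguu

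The promoters are the 250 bases before the gene's RefSeq start. CXCL1 (chr4:73869143-73869392, plus strand), UGT1A1 (chr2:233760020-233760269, plus strand) and AGR2 (chr7:16805000-16805249, minus strand) started in clusters with under 0.5 times the called length after knockdown. CXCL2 (chr4:74099196-74099445, minus strand) started in a cluster with a log2 ratio of −0.33. The cluster of CXCL5 and CXCL3 lies between it and that of CXCL1. MET (chr7:116671946-116672195, plus strand) started in a cluster that was longer after knockdown, with a log2 ratio of 0.33, but not among the 10 most lengthened. AGR2, CXCL2 and MET were chosen for display after their values were seen. Capitals mark the letters TTGCNNAA, a C/EBP motif, read on either strand. TNS3, in a cluster whose groups overlapped, also has them. CXCL3 and CXCL5, in a cluster with a log2 ratio of −0.98, do not. These genes are not shown, and whether the motif goes with the change in length was not tested.
CXCL1: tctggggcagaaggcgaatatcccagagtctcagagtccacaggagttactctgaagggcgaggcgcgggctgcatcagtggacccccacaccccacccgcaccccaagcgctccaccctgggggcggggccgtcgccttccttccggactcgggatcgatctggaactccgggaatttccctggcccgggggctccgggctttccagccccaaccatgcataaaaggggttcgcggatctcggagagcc
CXCL2: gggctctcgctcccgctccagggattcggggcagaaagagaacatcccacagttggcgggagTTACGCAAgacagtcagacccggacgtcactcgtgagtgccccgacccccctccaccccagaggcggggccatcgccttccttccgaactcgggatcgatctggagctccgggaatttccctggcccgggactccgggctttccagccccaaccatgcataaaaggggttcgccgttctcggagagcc
UGT1A1: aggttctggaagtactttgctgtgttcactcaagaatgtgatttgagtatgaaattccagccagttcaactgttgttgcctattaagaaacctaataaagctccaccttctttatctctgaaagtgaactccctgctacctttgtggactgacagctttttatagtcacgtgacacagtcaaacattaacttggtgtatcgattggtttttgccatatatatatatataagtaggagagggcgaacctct
AGR2: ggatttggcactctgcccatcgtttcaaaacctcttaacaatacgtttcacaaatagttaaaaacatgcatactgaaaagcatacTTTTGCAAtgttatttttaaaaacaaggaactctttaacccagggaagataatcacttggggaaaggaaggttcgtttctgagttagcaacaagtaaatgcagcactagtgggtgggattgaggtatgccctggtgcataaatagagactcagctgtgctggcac
MET: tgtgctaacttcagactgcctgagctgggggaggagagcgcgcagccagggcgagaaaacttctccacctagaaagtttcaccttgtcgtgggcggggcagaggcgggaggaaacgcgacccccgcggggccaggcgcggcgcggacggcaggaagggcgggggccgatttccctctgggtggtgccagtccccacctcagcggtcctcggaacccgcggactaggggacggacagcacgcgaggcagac

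Of the genes starting in large clusters, 63 had a RefSeq promoter of 300 bases (250 before and 50 after the start) and a gene length within 2 kb of the placement used here. The letters TTGCNNAA occurred in 3 of these (4.76%; CXCL2, AGR2 and TNS3), against 10.5% of all 35116 RefSeq promoters of the same length. The AP-1 letters TGANTCA occurred in 2 (3.17%, against 7.71%). The letters TGACNNNGC, the core of the antioxidant response element bound by NRF2, occurred in 10 (15.9%, against 13.3%), among them PGD and NFKBIA. Each motif was read on both strands, and matches of different motifs may overlap. The median GC content was 64.3% in these promoters and 58.7% in all. A match is a run of letters and not a bound site.

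The large clusters were few but long. Spans ran from 15.6 to 248 kb, with a median of 44.8 kb, and summed to 30.0 Mb. Peaks covered a median of 54.1% of a span over the controls. The clusters took 24.4% of the called length of control 1 and 24.9% of that of control 2, with 12.9% and 13.4% of the peaks. In the knockdown libraries the same spans held 21.2% of the called length with siRNA-1 and 22.03% with siRNA-2, with 10.8% and 11.7% of the peaks. Both knockdown shares lay under both control shares. Choosing the spans by the controls' lengths favours this order, which was not tested. The number of control 1 peaks in a cluster ran from 1 to 58. The median was 9 peaks in each control and 8 in each knockdown library.

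**Figure D1:**
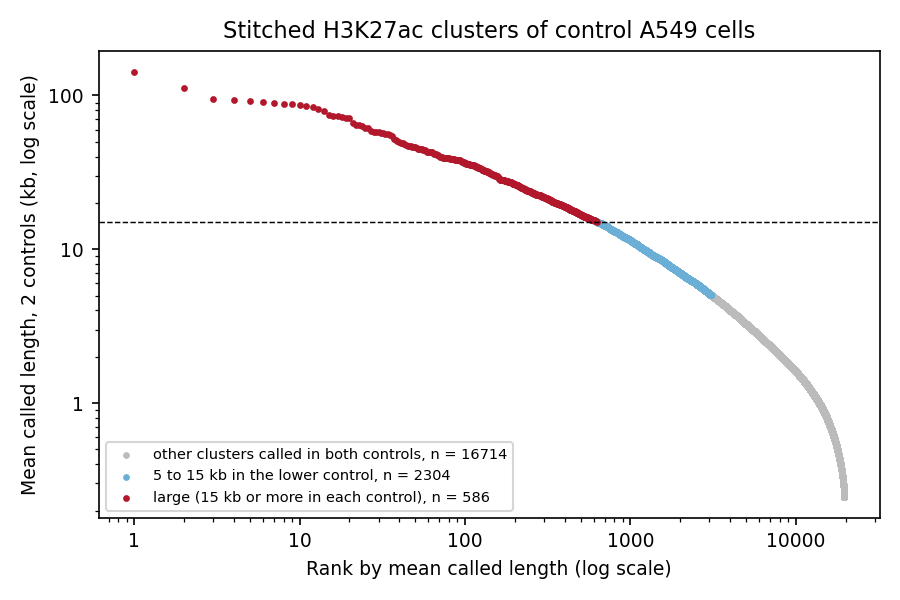
Mean called length over both controls (kb, log scale) against rank (log scale) for the 19604 joined clusters called in both controls, with 1 point per cluster. The 586 large clusters lie at the upper left, the 2304 clusters with 5 to 15 kb in the lower control follow, and the dashed line marks 15 kb.

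The best peak of most clusters ranked high in its list, while the clusters' peaks as a whole did not. The best peak lay in the list's top 10% in 574 clusters in control 1 and 578 in control 2. It did so in 530 clusters with siRNA-1 and 538 with siRNA-2. By the authors' −log10 q, the best peak of a large cluster had a median percentile of 98.5 in the list of control 1, 98.4 in control 2, 98.0 with siRNA-1 and 98.3 with siRNA-2. In clusters with 5 to 15 kb of called length in the lower control, this median was 93.2 to 93.9, over fewer peaks a cluster. Over all peaks in the spans the order was the other way, with a median percentile of 46.7 to 53.2 in the large clusters and 57.1 to 62.4 in those of 5 to 15 kb. Of the 100 widest peaks of each list, 100 lay in large clusters for each control, 95 for siRNA-1 and 99 for siRNA-2. Length chose the clusters, so the control figures for width were set in part by the rule. The widest peak of control 1 covered 62.8 kb within PDE4D. The widest of control 2 covered 46.1 kb beside MIR29A and MIR29B1, a pair of microRNAs known to target collagen transcripts, and that of siRNA-1 covered 45.0 kb at the same place. The widest with siRNA-2 covered 74.0 kb at LIF, which encodes a cytokine of the interleukin-6 family.

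The largest cluster, chr5:58268233-58516109 (hg19), spanned 248 kb inside PDE4D, which encodes a phosphodiesterase that degrades cyclic AMP. Its called length was 151 kb in control 1, 134 kb in control 2, 88.2 kb after siRNA-1 and 107 kb after siRNA-2, in 58, 59, 29 and 44 peaks. Both knockdown lengths lay under both controls. The second largest, chr5:58754234-58895331, also lay in PDE4D and had 115, 107, 93.0 and 82.5 kb in the same order of libraries. In all, 4 large clusters lay in this gene, and both knockdown libraries were below both controls in each. The same held for 50.0% of all large clusters and 39.8% of all clusters called in both controls. The summed called length of the 4 PDE4D clusters was 331 kb and 301 kb in the controls and 204 kb and 218 kb with siRNA-1 and siRNA-2.

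The third largest cluster held MIR21, an abundant microRNA of many carcinomas, and kept most of its length. At chr17:57823828-57938647 it had 96.0 kb in control 1, 92.9 kb in control 2, 95.7 kb after siRNA-1 and 86.9 kb after siRNA-2. The siRNA-1 length fell between the controls. CYP24A1, which encodes the enzyme that inactivates vitamin D, lay in a cluster at chr20:52701824-52794942 with 80.3, 79.2, 77.8 and 79.0 kb. Its knockdown mean was 98.3% of the control mean with both lengths under both controls, so a cluster can count as shorter on a small difference. SMAD3, which encodes a transducer of TGF-β signals, started in a cluster at chr15:67332076-67490038 with 87.8 kb in control 1, 81.6 kb in control 2, 90.8 kb after siRNA-1 and 84.9 kb after siRNA-2. The siRNA-2 length there also lay between the controls.

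Among the other largest clusters, 7 of 10 were shorter with both siRNAs than in both controls, against 39.8% of all clusters called in both controls and 50.0% of the large ones. The cluster with the starts of MTUS1 and FGL1, at chr8:17609588-17781707, had 98.0 and 90.2 kb in the controls against 67.9 and 67.4 kb with the siRNAs. MTUS1 encodes a microtubule-associated protein, and FGL1 a secreted fibrinogen-like protein. That of IGFBP4, an insulin-like growth factor binding protein, and TNS4, a tensin of focal adhesions, had 98.2, 87.3, 82.8 and 70.4 kb. EDN1, the gene of the vasoconstrictor peptide endothelin-1, lay in a cluster with 90.2, 86.1, 83.4 and 71.2 kb. The cluster of AKR1C1 and AKR1C2, which encode NADPH-dependent reductases driven by NRF2, had 75.7 and 74.2 kb in the controls, 69.6 kb after siRNA-1 and 48.0 kb after siRNA-2. The remaining shorter clusters of this group lay at ASPH, at DLGAP1 and at a stretch with the starts of MRPS23, CUEDC1, VEZF1 and SRSF1. Their knockdown means were 84.7%, 84.2% and 88.1% of the control means.

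In the other 3 of these 10 clusters the knockdown and control lengths overlapped. The keratin cluster of KRT7, KRT80, KRT81 and KRT83, genes of epithelial intermediate filaments, had 92.1, 84.4, 99.4 and 82.4 kb. TNS3, which encodes another tensin, lay in a cluster with 91.6 and 82.8 kb in the controls, 107 kb after siRNA-1 and 83.5 kb after siRNA-2. THSD7A, which encodes a membrane protein with thrombospondin repeats, had 94.5, 87.8, 88.4 and 77.9 kb. CMIP, with 39 control 1 peaks, was the only cluster among the 5 with the most peaks that was not among the 15 largest. It had 62.2, 50.0, 50.2 and 51.9 kb.

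**Figure D2:**
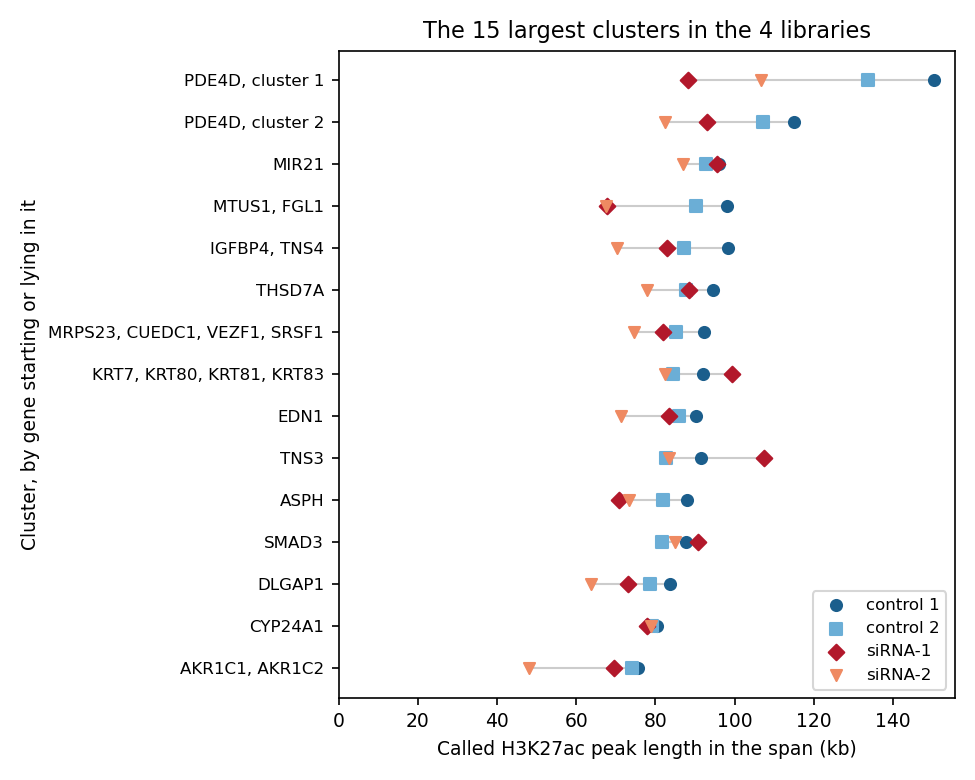
Called H3K27ac peak length (kb, from 0) of the 15 clusters with the highest control mean, with 1 point per library and a grey line over their range. The knockdown points lie to the left of both control points in both upper PDE4D clusters and at MTUS1 and FGL1, while the points at CYP24A1 nearly coincide.

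Over all 586 clusters, called length was lower after knockdown, by a modest amount. The summed length was 16.6 Mb in control 1, 15.5 Mb in control 2, 14.96 Mb with siRNA-1 and 13.6 Mb with siRNA-2. The knockdown mean of 14.3 ± 0.972 Mb (SD, n = 2) was 89.2% of the control mean of 16.01 ± 0.783 Mb (SD, n = 2). The difference was −1.73 Mb, and it carries no test because the control lengths chose the clusters. The median over clusters of log2 of the knockdown mean over the control mean was −0.14, with quartiles at −0.38 and 0.04. It was −0.15 over all clusters called in both controls and −0.12 over those of 5 to 15 kb. Each siRNA over the control mean gave a median of −0.06 for siRNA-1 and −0.21 for siRNA-2. These lengths are unscaled, and the whole list covered 70.4 Mb with siRNA-1 and 61.7 Mb with siRNA-2. The large clusters held 21.2% of the siRNA-1 length and 22.03% of the siRNA-2 length.

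In 293 clusters both knockdown lengths were under both controls, which is 50.0% against 39.8% of all 19604 clusters called in both controls. In 83 clusters both were over both controls (14.2%, against 13.5%), and in 210 the groups overlapped. Under 0.5 times the lower control with both siRNAs were 20 clusters (3.41%, against 13.0%), and over 1.5 times the higher control was 1 (0.171%, against 1.54%). The clusters of 5 to 15 kb gave 44.7% shorter, 17.8% longer, 5.38% under 0.5 times and 0.781% over 1.5 times. No large cluster was without a peak in any library. With siRNA-1, 472 clusters still had 15 kb or more, and with siRNA-2, 441. In 421 this held with both siRNAs, in 71 with only 1 and in 94 with neither.

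The direction depended on the lists in which the clusters were chosen. Joining and choosing by the same rule in the knockdown lists gave 538 clusters, with a median log2 ratio of 0.09 and a summed difference of 0.704 Mb in favour of knockdown. Of these, 124 (23.0%) were shorter after knockdown and 207 (38.5%) longer. Under 0.5 times the lower control were 0 (0.0%), and over 1.5 times the higher control were 24 (4.46%). Of the 586 clusters of the controls, 413 (70.5%) overlapped a cluster of the knockdown lists, and 415 of the 538 (77.1%) overlapped a cluster of the controls. Shorter knockdown lengths in clusters chosen for length in the controls cannot be told apart from the effect of that choice.

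Clusters were also chosen in a single list and read in the other 3. Lengths were divided here by each library's total called length. For the 662 clusters chosen in control 1, the median log2 ratio to control 1 was 0.02 in control 2, −0.17 with siRNA-1 and −0.14 with siRNA-2. For the 578 chosen in control 2, it was −0.07 in control 1, −0.22 with siRNA-1 and −0.17 with siRNA-2. For the 733 chosen with siRNA-1, it was −0.10 with siRNA-2, −0.17 in control 1 and −0.12 in control 2. For the 521 chosen with siRNA-2, it was −0.08 with siRNA-1, −0.11 in control 1 and −0.05 in control 2. On this scale the library of the same treatment kept more length than either library of the other treatment in the first 3 choices, and control 2 kept the most in the last. Unscaled, as lengths are given elsewhere here, clusters chosen with siRNA-1 read −0.29 with siRNA-2, −0.23 in control 1 and −0.30 in control 2. Those chosen with siRNA-2 read 0.11 with siRNA-1, 0.02 in control 1 and −0.04 in control 2. Both orders thus depended on the scaling.

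**Figure D3:**
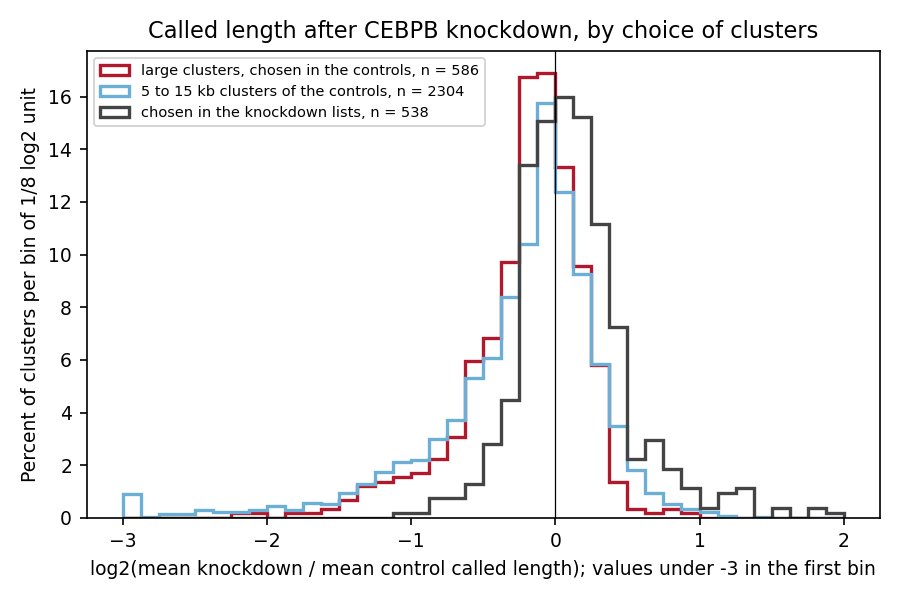
Percent of clusters (vertical axis) in bins of the log2 ratio of mean knockdown to mean control called length, for the 586 large clusters, the 2304 clusters of 5 to 15 kb and the 538 clusters chosen in the knockdown lists. The first have a tail to the left and a median of −0.14, and the last have a tail to the right and a median of 0.09.

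The counts differed between the largest and smallest members. The 100 largest clusters, with control means of 36.6 to 142 kb, had a median log2 ratio of −0.18, with 63 shorter, 6 longer and 0 under 0.5 times the lower control. The 100 smallest, with 15.1 to 17.1 kb, had a median of −0.05, with 37 shorter, 27 longer and 5 under 0.5 times. Of all large clusters, 50.0% were shorter, 14.2% longer and 3.41% under 0.5 times the lower control. Of all clusters called in both controls, the shares were 39.8%, 13.5% and 13.0%. Just inside the threshold lay a cluster at chr7:54875578-54907776, a cluster in FGF2 and the cluster of FTH1, with 15.015, 15.02 and 15.025 kb in their lower control. Just outside lay clusters in FCHO1, at SPSB1 and at chr1:167885371-167907622, with 14.99, 14.977 and 14.966 kb.

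The 2 siRNAs were also compared through pairs that share no library. Across the 586 clusters, log2 of siRNA-1 over control 1 and log2 of siRNA-2 over control 2 had a Pearson r of 0.758 and a Spearman rho of 0.757. Both ratios were below 0 in 346 clusters and above 0 in 127, and in 113 their signs differed or a ratio was 0. For comparison, log2 of control 2 over control 1 against log2 of siRNA-2 over siRNA-1 gave r of 0.117 and rho of 0.126. Across clusters the SD of the log2 ratio was 0.0875 between the controls, 0.332 between the siRNAs, 0.511 for siRNA-1 over control 1 and 0.382 for siRNA-2 over control 2. These correlations are descriptions across regions of the same libraries, which share the spans and the rule. The rule asked for 15 kb or more in each control, which limits how far the controls can differ. The SD between the controls, and the r of 0.117 and rho of 0.126, therefore do not measure the spread between libraries in general.

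**Figure D4:**
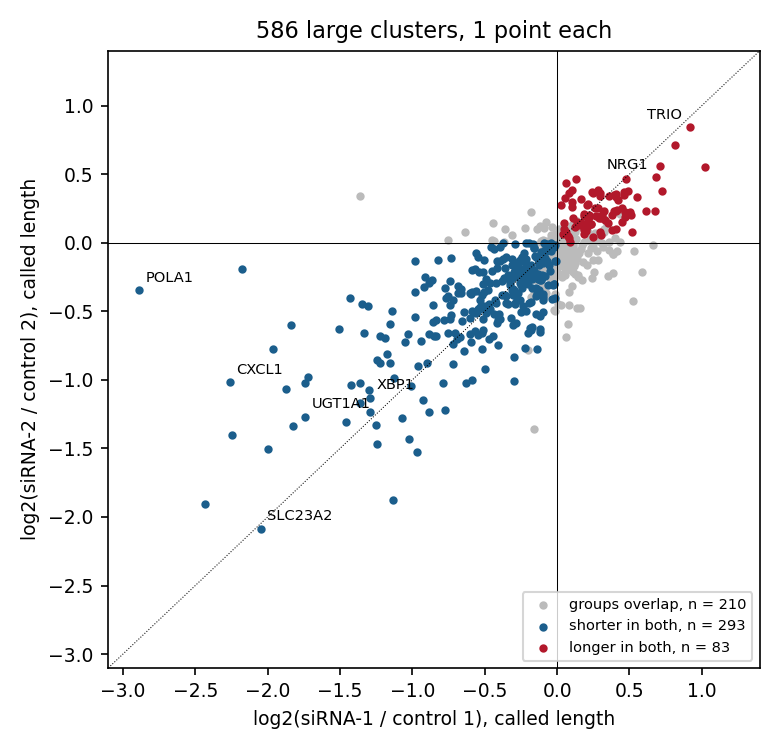
Log2 ratio of called length, siRNA-1 over control 1 (horizontal) against siRNA-2 over control 2 (vertical), with 1 point for each of the 586 clusters. Blue points are the 293 shorter with both siRNAs, red points the 83 longer and grey points the 210 whose groups overlap, and SLC23A2 lies near the dotted line of equal ratios while POLA1 lies far from it.

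Within the spans most acetylated bases were common to all libraries. Peaks of both controls covered 14.6 Mb. Of this, 85.8% was also called with siRNA-1, 83.2% with siRNA-2 and 78.7% with both, while 9.74% (1.42 Mb) was called with neither. Peaks of both knockdown libraries covered 12.53 Mb, of which 3.42% (0.428 Mb) was called in neither control. Bases shared by 2 libraries made up 84.0% of the bases called in either for the controls, 78.2% for the siRNAs and 72.8% to 74.6% for a control with an siRNA. In the clusters of 5 to 15 kb these shares were 80.9%, 74.2% and 67.6% to 70.3%. Both sets of clusters were chosen by the controls' lengths, which favours bases shared by the controls. The order of these shares was not tested.

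The most shortened cluster, chr5:100987834-101016724, lay over no mapped gene and had 25.4 kb in control 1, 20.9 kb in control 2, 4.71 kb after siRNA-1 and 5.57 kb after siRNA-2. The next lay within SLC23A2, at chr20:4931272-4959480. SLC23A2 encodes a sodium-dependent vitamin C transporter. Its cluster had 22.96 and 22.4 kb in the controls against 5.56 and 5.28 kb with the siRNAs, a log2 ratio of −2.07. A long block called in both controls was reduced there to a few short peaks, while the groups did not overlap. The third was another cluster of PDE4D, chr5:58643524-58688297, with 24.98, 22.5, 5.27 and 8.54 kb.

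CXCL1 encodes a chemokine that attracts neutrophils. Its cluster, chr4:74732879-74765745, had 15.7 and 15.3 kb in the controls, 3.27 kb after siRNA-1 and 7.54 kb after siRNA-2. It stood beside a cluster with the starts of CXCL5 and CXCL3 (29.6, 29.1, 13.1 and 16.6 kb). Beyond that lay the cluster of CXCL2 (20.8, 20.1, 15.9 and 16.6 kb). These genes encode related chemokines. All 3 clusters were shorter with both siRNAs, as were 50.0% of all large clusters and 39.8% of all clusters called in both controls. UGT1A1, which encodes the enzyme that conjugates bilirubin, started in a cluster at chr2:234648773-234673737 with 18.1, 17.9, 5.41 and 7.42 kb. The cluster within FBXO21, a gene of a ubiquitin ligase subunit, had 19.1 kb in both controls, 5.23 kb after siRNA-1 and 9.11 kb after siRNA-2. The other 4 of the 10 most shortened lay over no mapped gene, at chr21:39647513-39696229, chr7:16930542-16969254, chr7:54875578-54907776 and chr17:59628640-59661451, with log2 ratios of −1.74 to −1.39.

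Mapped genes with a start in the clusters under 0.5 times the lower control were CXCL1, UGT1A1, AGR2, XBP1 and ITIH2, of which the last 3 are named after their values were seen. AGR2 encodes a protein disulfide isomerase of secretory epithelia, and its cluster had 20.7, 19.2, 8.03 and 9.47 kb. XBP1 encodes a transcription factor of the unfolded protein response, and its cluster had 17.9, 15.4, 7.29 and 7.05 kb. ITIH2 encodes a heavy chain of a plasma protease inhibitor, and its cluster had 18.1, 17.2, 7.65 and 6.20 kb.

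The most lengthened cluster, chr5:14142501-14218996, held the start of TRIO, which encodes a guanine nucleotide exchange factor for small GTPases. It had 18.7 kb in control 1, 15.2 kb in control 2, 35.3 kb after siRNA-1 and 27.3 kb after siRNA-2, a log2 ratio of 0.89. A cluster within NRG1, the gene of an ERBB receptor ligand, had 23.1, 24.8, 37.2 and 34.6 kb. In both of these the knockdown lengths lay over both controls, and the siRNA-1 length was the longer.

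Clusters within NEK6, SYNJ2 and ABTB3 had log2 ratios of 0.47, 0.45 and 0.44. The other 4 of the 10 most lengthened lay over no mapped gene. That at chr8:130693957-130739090, with 20.7, 19.9, 36.4 and 32.6 kb, was the only cluster over 1.5 times the higher control with both siRNAs. TRIO did not reach this, since siRNA-2 stayed under that limit. Those at chr20:52354701-52423931, chr11:86428926-86460684 and chr10:93347467-93377404 had log2 ratios of 0.64, 0.56 and 0.47.

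**Figure D5:**
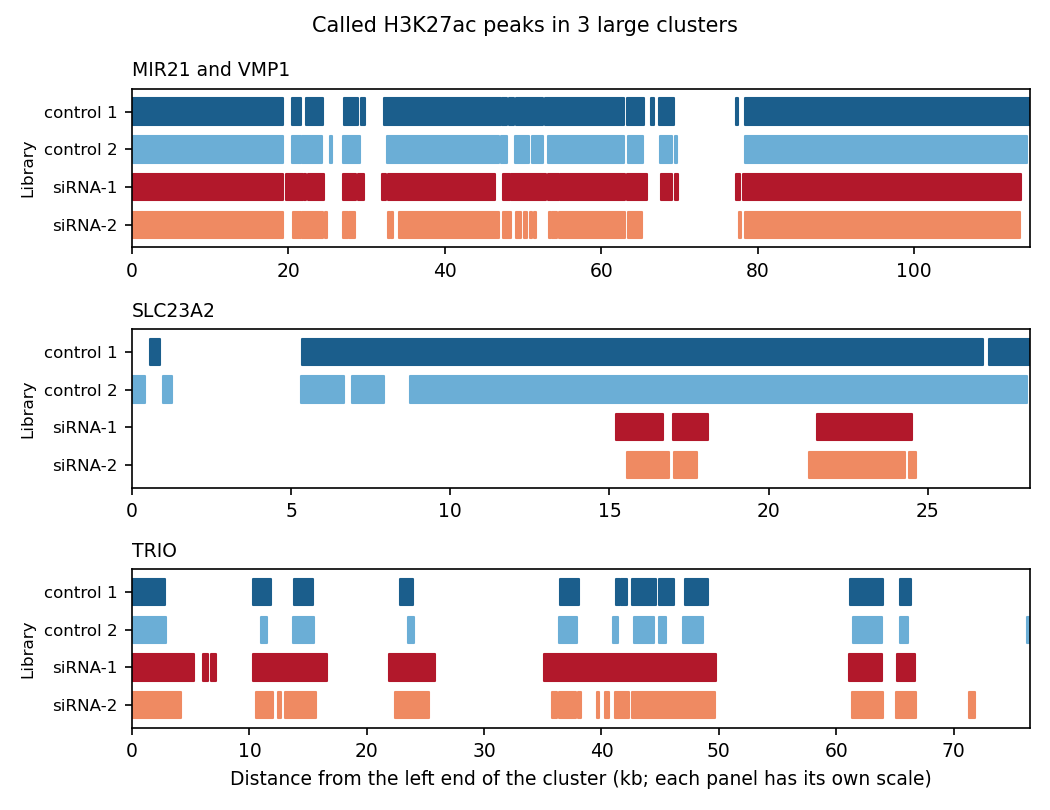
Called peaks (bars) of the 4 libraries along the clusters of MIR21, SLC23A2 and TRIO, by distance from the left end of the cluster (kb, each panel on its own scale). Blocks are nearly the same in all libraries at MIR21, are reduced to short peaks with both siRNAs at SLC23A2 and are wider with both siRNAs at TRIO.

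The siRNAs differed most in 5 clusters. That within POLA1, which encodes the catalytic subunit of DNA polymerase alpha, had 22.6 and 20.1 kb in the controls, 3.05 kb after siRNA-1 and 15.8 kb after siRNA-2. Clusters at chr1:186671858-186690011 (17.7, 16.99, 3.92 and 14.9 kb) and chr3:159816256-159862317 (16.9, 20.0, 4.72 and 13.2 kb) were likewise lower with siRNA-1. In IMMP2L the lengths were 19.9, 16.6, 7.77 and 21.1 kb, and the siRNA-2 length lay over both controls. The cluster at chr19:9160506-9191032 went the other way, with 21.6, 18.5, 19.3 and 7.22 kb. Each siRNA has 1 library, so a difference between siRNAs cannot be told apart from a difference between libraries.

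NRF2 raises the genes of glutathione and NADPH supply, of drug conjugation and of export. Of 31 listed NRF2 targets, 14 started in large clusters, in 13 clusters. Of these clusters, 5 were shorter with both siRNAs and 0 longer, with a median log2 ratio of −0.10 against −0.14 over all large clusters. The share of 5 in 13 lies near the 39.8% of all clusters called in both controls and under the 50.0% of all large clusters. The AKR1C1 and AKR1C2 cluster is described above, and AKR1C3 beside it had 34.8, 32.3, 30.0 and 22.8 kb. PGD, an NADPH-producing enzyme of the pentose phosphate pathway, had 45.3, 41.9, 34.1 and 24.995 kb. SLC7A11, the cystine importer, had 38.9, 37.3, 36.9 and 34.1 kb, and FTH1, the ferritin heavy chain, had 15.5, 15.02, 13.999 and 10.5 kb. In all these the siRNA-2 length was the lower. Over all large clusters the median log2 ratio of siRNA-2 to siRNA-1 was −0.13, so this is not particular to NRF2 targets.

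The groups overlapped at the other 8 NRF2 target clusters. Among them, the exporter genes ABCC1, ABCC2 and ABCC3 had log2 ratios of −0.06, −0.10 and 0.14. HMOX1, which encodes the heme-degrading enzyme, had 23.4, 20.0, 24.6 and 13.3 kb, and AKR1B10, TKT and UGDH had log2 ratios of 0.04, −0.07 and −0.09. NFE2L2, the gene of NRF2, and MAFK, a small MAF partner of NRF2, were the only genes of 13 placed AP-1 and related factors to start in large clusters. NFE2L2 had 19.1, 17.6, 17.3 and 13.6 kb, and MAFK 49.8, 44.5, 40.7 and 37.5 kb, both under the controls. Of all large clusters, 50.0% were shorter in this way.

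Of 21 listed lung and endoderm transcription factors, KLF5 and ELF3 started in large clusters. Both are regulators of epithelial differentiation. KLF5 had 22.7, 22.3, 13.6 and 15.2 kb, and ELF3 had 52.4, 47.4, 44.8 and 27.8 kb. Both clusters were shorter with both siRNAs, as were 50.0% of all large clusters and 39.8% of all clusters called in both controls. CEBPB itself started in a smaller cluster, with 9.89, 8.96, 7.15 and 9.26 kb, where the groups overlapped. Of 14 genes of the Notch pathway only HES1, a repressor induced by Notch, started in a large cluster, with 18.97, 19.2, 14.9 and 14.7 kb. The 8 listed housekeeping genes, all with a peak at their start in all 4 libraries, started in no large cluster.

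Of 17 growth factor and signalling genes, 8 started in large clusters, of which 2 were shorter and 4 longer, against 50.0% shorter and 14.2% longer over all large clusters. The longer ones held MET, the hepatocyte growth factor receptor (21.1, 18.96, 27.95 and 22.3 kb), SMAD7, an inhibitor of TGF-β signalling (22.9, 20.6, 27.9 and 24.6 kb), EPHA2, an ephrin receptor (35.8, 34.8, 41.4 and 37.8 kb), and LIF (75.7, 71.8, 78.1 and 76.8 kb). The shorter ones held TGFBR2, a TGF-β receptor (24.2, 23.6, 19.3 and 19.3 kb), and TEAD1, a partner of YAP (18.1, 16.6, 12.4 and 11.6 kb). EGFR, the epidermal growth factor receptor, had 30.3, 26.3, 35.5 and 26.9 kb and overlapped, as did SMAD3.

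Of 20 genes of epithelial and mesenchymal structure, 9 started in 8 large clusters, of which 4 were shorter and 2 longer. Over all large clusters the shares were 50.0% and 14.2%. The shorter ones held the keratin genes KRT8 (29.4, 27.3, 25.8 and 23.0 kb) and KRT18 (37.7, 38.9, 32.0 and 28.2 kb), the E-cadherin gene CDH1 (20.7, 18.0, 14.1 and 12.9 kb), and TGM2, a transglutaminase gene (22.6, 21.0, 16.7 and 20.4 kb). A longer one held the integrin gene ITGA3 (17.5, 16.7, 21.6 and 21.5 kb). Of 7 listed noncoding RNAs, 5 were placed and 3 started in large clusters. The clusters of the long noncoding RNAs MALAT1 and NEAT1 counted as shorter, by log2 ratios of −0.08 and −0.16. At MIR21 (−0.05) the groups overlapped.

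Other mapped genes were placed because they were known to lie near a cluster, so they form no list and get no count. ID1 and ID3 encode inhibitors of helix-loop-helix factors, and ID3 lay in a cluster with 49.2, 48.3, 30.1 and 30.6 kb and ID1 in a cluster with 38.8, 37.8, 28.1 and 27.1 kb. NFKBIA, which encodes an inhibitor of NF-κB, had 34.98, 31.0, 18.8 and 16.9 kb. ZMYND8, a chromatin reader gene, had 73.7, 70.5, 43.2 and 53.4 kb. In these hand-picked examples the knockdown lengths lay under both controls. Of all 110 clusters with a mapped gene start, 51 were shorter and 14 longer. The shares were 50.0% and 14.2% over all large clusters, and 39.8% and 13.5% over all clusters called in both controls.

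Several clusters lay side by side. Within 200 kb of another large cluster lay 212 of the 586, in 97 groups. In 38 groups all members were shorter with both siRNAs, in 3 all were longer, and 4 held both a shorter and a longer member. Of all 586 large clusters, in groups or not, 50.0% were shorter and 14.2% longer. Those are shares of clusters, so they give no reference for counts of whole groups. Whether neighbours moved together was not tested. The group of ALDH1A1, which encodes a retinaldehyde dehydrogenase, had 5 clusters, 4 of them shorter, and 209, 198, 188 and 174 kb in all. A group of 5 on chromosome 6 covered the linker histone genes H1-2, H1-4 and H1-6 and had 131 and 125 kb in the controls, 107 kb after siRNA-1 and 126 kb after siRNA-2. The groups overlapped there, since the siRNA-2 sum lay between the controls. By chromosome, large clusters made up 6.19% of the clusters called in both controls on chromosome 20 (31 of 501) and 1.36% on chromosome 13 (6 of 442), the highest and lowest shares.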

How the data were processed

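The 4 deposited H3K27ac peak lists, 1 per library, were used. BWA 0.7.17, MACS2 2.2.7.1, SAMtools 1.7.0 and the build hg19 are named, with no role or order, per the submitters' processing notes. Tool options, like the use of the 4 inputs, were not given in the sources used here. The deposited lists give positions, each summit's fold enrichment over background, its −log10 p and −log10 q, and an integer score, all from the authors' peak caller. Here −log10 q ranked and filtered peaks within a list, and the other values were not compared. Positions, and not levels, carry the results. Peaks in a list did not overlap each other. The lists carry no counts, so depth is unknown and no counting interval can be given.

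Peaks were joined, and called lengths, ratios and overlaps computed, with Python 3.11.15, numpy 2.4.6 and pandas 2.3.3, in scripts tested on simulated lists. A cluster counted as shorter or longer where both knockdown lengths lay on the same side of both controls. The 2 siRNAs served as the knockdown replicates, and the labels do not say that libraries came from separate cultures. With 2 libraries against 2 an exact permutation test cannot go below p = 0.333, and none was run. Named by rule were the 15 largest clusters, the 10 most shortened and 10 most lengthened, the 5 with most peaks, the 5 in which the siRNAs differed most, and 3 on each side of the threshold. Members and gene lists were chosen with earlier results of these data known.

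No hg19 genome or annotation was used here. The hg19 spans of 279 genes were therefore written from general knowledge, and 273 were kept: 234 whose length matched RefSeq GRCh38.p14 within 10%, and 39 whose spacing to a length-matched gene on the chromosome matched within 2 kb. Positions were not converted between builds, and planned motif searches at summits were replaced by RefSeq promoters. Results for some named genes are not reported here.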

Additional observations from a re-analysis of the deposited data

How the results depend on the processing

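The number of large clusters was 1124 with a threshold of 10 kb and 328 with 20 kb, against 586. With these, 542 and 173 were shorter and 174 and 32 longer, against 293 and 83. Longer clusters numbered 147 with joining over 25 kb and 51 with peaks of −log10 q of 10 or more. The median log2 ratio reversed to 0.086 for clusters chosen in the knockdown lists; its other 12 alternatives kept it below 0. The summed difference reversed to 0.704 Mb for the same clusters, an alternative chosen after seeing the data, and stayed below 0 under the other 12 settings.

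With each library left out in turn, the number of clusters ranged from 578 to 662, the median log2 ratio from −0.21 to −0.06 and the summed difference from −2.59 to −1.05 Mb, the last without siRNA-2. Shorter clusters ranged from 311 to 426 and longer ones from 89 to 208, that of 208 without siRNA-2. With a single library in a group, that group's spread is not counted.

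With a replicate block on the label numbers the median was −0.15 and the difference −1.73 Mb. This paired value is a description without a test, and nothing in the labels says that equal numbers share a culture. Depth is unknown and limits what an absent peak shows.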
